A study of Mus musculus with 6 samples.

Results

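The genes Pou5f1, Nanog, Sox2, Klf4, Klf5, Klf17, Esrrb, Sall4, Tfap2c and Gata6 encode transcription factors of the pluripotency network, together with a factor of the primitive endoderm, and their transcripts were measured in mouse 2-cell embryos. They were taken by gene symbol from the 48967 genes to which counts could be assigned, and 10 of 10 were found. The question was how high each of them stands at this stage and whether its level differs after the lipid droplets have been taken out of the zygote.

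RNA sequencing covered 6 libraries, 3 of control embryos and 3 of delipidated embryos, each made from a pool of 3 embryos at the 2-cell stage. All embryos were wt, of the strain F1 (C57Bl/10 X CBA/H), labelled day 2, and grew in vitro from 0.5 to 2.0 dpc in KSOM without fatty acids. Delipidated embryos had been treated as zygotes with cytochalasin B, spun in a centrifuge so that the lipid droplets gathered, and freed of the droplets with a pipette through an opening in the zona pellucida. The methods name the sequenced controls as embryos cultured in vitro, and whether they were spun or opened as well is not given for them in the sources used here, so removal of lipid and this handling cannot be told apart. According to the methods, zygotes of 6 hormone-stimulated females, 2 to 5 months old, were mixed and divided between the groups at random, so libraries are pools and not separate animals, and p-values measure the spread between these pools alone. Counts assigned to genes came to 12164963, 16165958 and 12980787 in control replicates 1, 2 and 3 and to 20059460, 16332103 and 14683741 in delipidated replicates 1, 2 and 3. Genes with a count numbered 22855, 22437 and 20582 in controls and 17091, 19408 and 20158 after delipidation, so fewer genes were detected in each delipidated library, and how far this bears on counts of 0 was not tested.

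Transcripts listed for the 2-cell stage were present in these libraries. Of 21 genes listed for the activation of the genome at this stage, 20 were found and all 20 held counts in both groups. The highest of them was Obox6, a homeobox gene, with 71.8 ± 8.86 CPM per kb (SD, n = 6). Duxf3, on the same list, stood at 1.09 CPM per kb with 0 counts in delipidated replicate 1. Holding a count separates little by itself. Markers of other cells also had one in a control library, 17 of 20 for cumulus and granulosa, 12 of 13 for stromal and 10 of 11 for leukocyte markers. CPM are counts scaled to a common library size with TMM factors, and CPM per kb divides them by the summed length of a gene's exonic parts, the non-overlapping pieces into which its exons were split for counting. The highest of the listed maternal transcripts was Dppa3 (Stella), which protects the maternal genome from demethylation, at 1165 ± 178 CPM per kb (SD, n = 6). Cdx2, the trophectoderm factor of the later blastocyst, was near 0, with 2, 6 and 0 counts in controls and 0, 0 and 4 after delipidation. It was named after its values were seen, from 16 listed trophectoderm and primitive endoderm factors, of which 15 held a count in a control library. Others on that list were higher, such as Gata4 at 33.1, Dab2 at 20.9 and Tead4 at 8.42 CPM per kb. The low count of Cdx2 is thus a description and no evidence of the stage.

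As background, Pou5f1 (Oct4), Sox2 and Nanog form the core of the network that keeps embryonic stem cells and the epiblast pluripotent, and Pou5f1 and Sox2 bind DNA as a pair. Kruppel-like factors, Esrrb, Sall4 and Tfap2c support this core, and several of them are already made in the cleaving embryo, some from maternal transcripts. Gata6 drives the primitive endoderm and opposes Nanog in the inner cell mass of the blastocyst.

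The members differed widely in level, and no difference between the groups was detected in those tested. Pou5f1 and Klf17 stood highest, with 102 ± 23.7 and 95.5 ± 10.9 CPM per kb (SD, n = 6 each), which placed them in the top 1.34% and 1.53% of the 30967 genes with at least 1 count. Klf5, Sall4, Klf4, Tfap2c, Esrrb and Sox2 followed, and Gata6 and Nanog were near the limit of detection. Of the 10 members 8 passed the filter on low counts and could be tested, and edgeR called 0 of them, where 0% of the 16020 genes tested were called in either direction. At an unadjusted p-value under 0.05 there were 0 members, against 2.89% of all genes tested. Intervals were wide for some, the widest for Sox2, then Esrrb (0.545-fold to 2.41-fold), Tfap2c (0.533-fold to 1.54-fold) and Klf4. Differences inside these intervals are not excluded. DESeq2 called 3 genes higher and 9 lower among the same 16020, with 0 of the 8 members among them, and limma-voom called 0. The groups overlapped for every one of the 8, and 8.86% of the genes tested had groups that did not overlap, a share that chance puts at 10%. Among only 8 members, 0 is not set apart from this share or from the 2.89% above. With 3 libraries against 3, the smallest p-value that the exact permutation test used here (two-sided, on mean log2(CPM + 1)) can give is 0.1. Fold changes were positive for 3 and negative for 5 members, with a median log2 ratio of -0.032 beside -0.00073 over all genes tested. In these pools fewer embryos or cells with a transcript and less RNA per cell cannot be told apart.

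**Figure D1:**
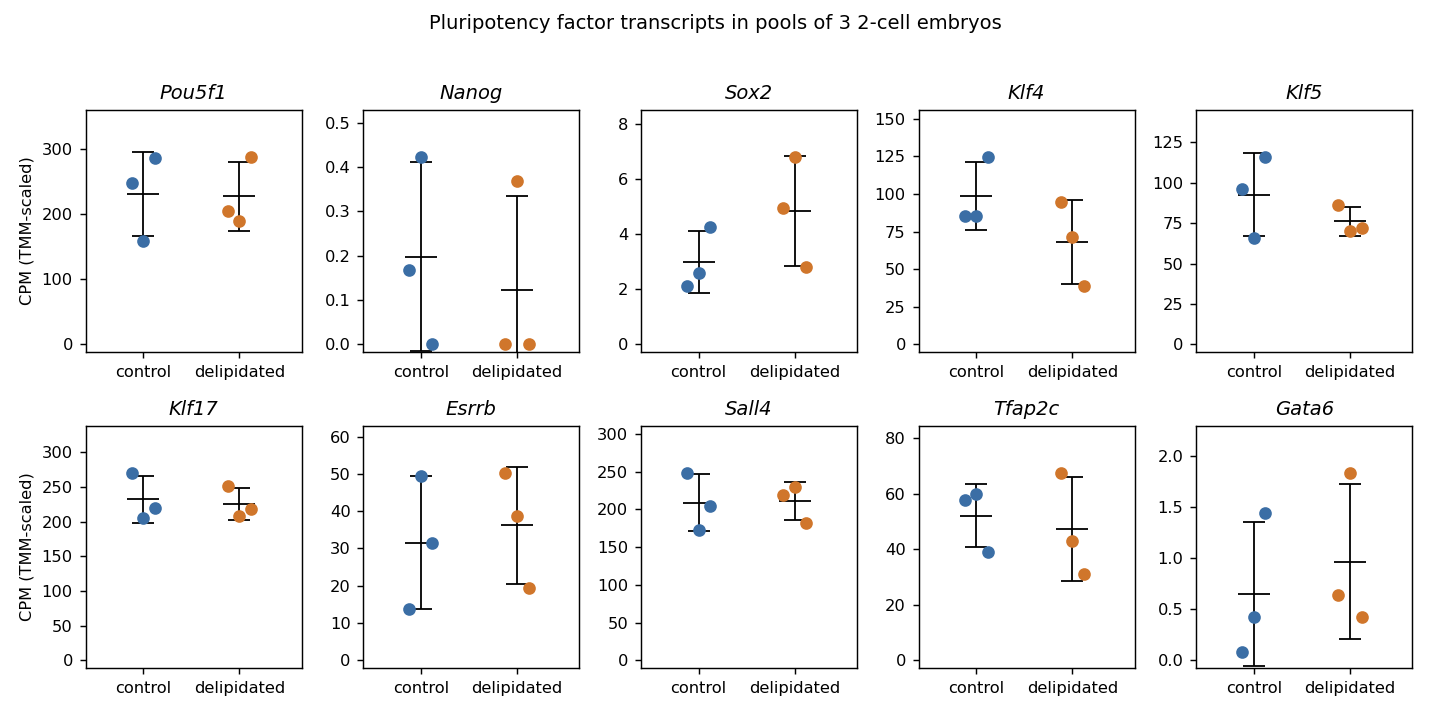
Level of each of the 10 members in CPM in the 3 control and 3 delipidated libraries, with points for libraries, a dash for the group mean and bars for the SD. The groups overlap in each panel, and the axes of Nanog, Gata6 and Sox2 cover only a few CPM.

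The core triad came first. Pou5f1, listed as ENSMUSG00000024406, lies on the forward strand of chromosome 17 (GRCm38, 35506018 to 35510772), with 2248 exonic bases in 14 parts. It stood at 248, 160 and 286 CPM in controls and at 205, 189 and 289 CPM after delipidation. Control replicate 3 and delipidated replicate 3 were both high and nearly equal, and control replicate 2 was the lowest of all. Delipidated over control, the log2 ratio of Pou5f1 was -0.02 (SE 0.26), and its 95% interval reached from 0.665-fold to 1.46-fold (edgeR's quasi-likelihood test, adjusted p = 1.00, exact permutation p = 1.00). The sign of so small a value changed with limma-voom and with 4 of the 6 libraries left out in turn.

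The parts of Pou5f1 showed which of its annotated starts held counts. Part 1, from 35506018 to 35506483, begins the longest transcript and held 315, 279 and 423 counts in controls and 447, 375 and 547 after delipidation. Parts 2 to 7, which lie between 35507482 and 35508872 and belong to shorter transcripts with later starts, held 0 counts in all 6 libraries, and part 8 held 17 counts in delipidated replicate 3 and 0 in the others. Parts of 812 bases with 27.7% of the counts overlap Gm19553, a gene on the reverse strand, and the counts of such parts cannot be assigned to a strand. Gm19553 itself was listed with 509, 465 and 748 counts in controls and 694, 619 and 705 after delipidation. In 6 pairs of parts that lie at the same place on opposite strands and have at least 100 counts, the smaller count divided by the larger had a median of 1, although the library kit keeps the strand.

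Promoter sequences are shown as a description for both starts of Pou5f1 that RefSeq lists (GRCm38.p6). Each sequence ends with the base before the start, written 5′ to 3′ on the forward strand, with capitals for the letters GGGCGG (the GC box), TTTGCAT (the core of the octamer bound by Pou5f1) and ACAAT (a core bound by SOX proteins), searched on both strands. The part that holds the start after the upstream window, chr17:35505782-35506031, held 2386 counts over the 6 libraries, and that after the downstream window, chr17:35508557-35508806, held 0. The window of Nanog, chr6:122707239-122707488, is added because it holds the octamer core and the SOX core 1 base apart, an arrangement of both partners' letters.
Pou5f1 upstream: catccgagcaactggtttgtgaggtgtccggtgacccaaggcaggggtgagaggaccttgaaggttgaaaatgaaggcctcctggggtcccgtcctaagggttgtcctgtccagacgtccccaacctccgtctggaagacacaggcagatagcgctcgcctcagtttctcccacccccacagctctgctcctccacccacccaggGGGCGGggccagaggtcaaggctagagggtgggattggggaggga
Pou5f1 downstream: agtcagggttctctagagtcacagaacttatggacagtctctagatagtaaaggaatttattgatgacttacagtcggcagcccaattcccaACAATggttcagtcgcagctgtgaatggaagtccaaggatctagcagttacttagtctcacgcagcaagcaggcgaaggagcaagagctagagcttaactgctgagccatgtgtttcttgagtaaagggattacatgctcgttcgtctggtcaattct
Nanog: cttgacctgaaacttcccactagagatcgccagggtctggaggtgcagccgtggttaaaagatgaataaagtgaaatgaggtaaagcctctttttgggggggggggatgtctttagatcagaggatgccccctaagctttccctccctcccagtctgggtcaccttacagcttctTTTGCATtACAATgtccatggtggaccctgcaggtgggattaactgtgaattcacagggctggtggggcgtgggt
Over all 32817 promoter windows of this length, 32.7% hold the GC box, 4.13% the octamer core and 27.7% the SOX core. The octamer core followed after 1 base by the SOX core was found in 8 windows, or 0.0244%, and 2 of these are the overlapping windows of Nanog's neighbouring starts. Entries were matched for 6 members (Esrrb, Klf17, Klf4, Nanog, Pou5f1 and Sox2), with none for Klf5, Sall4, Tfap2c and Gata6. A match of letters is a description and no evidence of binding in these embryos.

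Nanog, the homeobox factor of the late inner cell mass, was hardly detected. The gene, ENSMUSG00000012396, lies on the forward strand of chromosome 6 from 122707489 to 122714633. It collected 2, 7 and 0 counts in controls and 0, 6 and 0 after delipidation. These counts were on 1 part in each library that had any, part 8 in the controls and part 7, of 87 bases, in delipidated replicate 2, and its other 6 parts were empty throughout. A count of 0 allows up to 3 counts, which is 0.228 CPM in control replicate 3 and 0.148 and 0.212 CPM in delipidated replicates 1 and 3, a limit that covers counting error alone. Nanog was therefore not tested, and a difference between the groups was not detectable at this depth.

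Sox2, the partner of Pou5f1, was low but present in every library. The gene, ENSMUSG00000074637, is a single exonic part on the forward strand of chromosome 3 from 34650405 to 34652461, so that each read counts once. It collected 25, 43 and 56 counts in controls and 100, 111 and 40 after delipidation, which is 2.11, 2.60 and 4.26 CPM against 4.94, 6.82 and 2.82 CPM. Delipidated replicates 1 and 2 lay above every control library, while delipidated replicate 3 fell among the controls. For Sox2 the log2 ratio was 0.70 (SE 0.77), an interval from 0.502-fold to 5.27-fold (edgeR, adjusted p = 1.00, exact permutation p = 0.2). It was the least precise of the 8 tested members.

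Among the Kruppel-like factors, zinc finger proteins that recognise GC-rich DNA, the order Klf17, Klf5, Klf4 held in all 6 libraries in CPM per kb of the whole exonic length, and failed in control replicate 3 by the part with most counts alone, where Klf5 was above Klf17. Klf17 (ENSMUSG00000048626, chromosome 4, reverse strand, 117757836 to 117765648) stood at 271, 206 and 220 CPM in controls and at 252, 208 and 218 CPM after delipidation. Every delipidated library lay inside the range of the controls. For Klf17 the log2 ratio was -0.04 (SE 0.20), and the interval from 0.717-fold to 1.32-fold was the narrowest of the members (edgeR, adjusted p = 1.00, exact permutation p = 0.7). Of the members, Klf17 also varied least over the 6 libraries, with a coefficient of variation of 11.4%. The median over all genes tested was 44.2%, but it was not matched for level, and Klf17 stood in the top 1.53% by level. All 3 of its exonic parts held counts in each library.

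Klf5 is required for the first lineages of the mouse embryo, and Klf4 is a reprogramming factor. Klf5 (ENSMUSG00000005148, chromosome 14, forward strand, 99298691 to 99313405) stood at 96.4, 65.6 and 116 CPM in controls and at 86.4, 70.2 and 71.9 CPM after delipidation. The delipidated values again fell within the range of the controls, in its lower portion for replicates 2 and 3. For Klf5 the log2 ratio was -0.28 (SE 0.27, edgeR, adjusted p = 1.00, exact permutation p = 0.4).

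Klf4 (ENSMUSG00000003032, chromosome 4, reverse strand, 55527143 to 55532466) had the smallest p-value of the members. It was measured at 85.6, 85.6 and 125 CPM in the control and at 94.6, 71.4 and 38.9 CPM in the delipidated libraries. Delipidated replicates 2 and 3 lay below every control library, whereas delipidated replicate 1 lay between the controls. For Klf4 the log2 ratio was -0.53 (SE 0.33), an interval from 0.417-fold to 1.15-fold (edgeR, adjusted p = 1.00, exact permutation p = 0.3). It ranked 1452 by p-value among the genes tested. Without delipidated replicate 1 the log2 ratio was -0.84 (edgeR, adjusted p = 1.00), the setting in which a member passed an unadjusted 0.05, and without delipidated replicate 3 it was -0.25. Its adjusted p-value ranged from 0.718 to 1.00 over the alternatives.

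**Figure D2:**
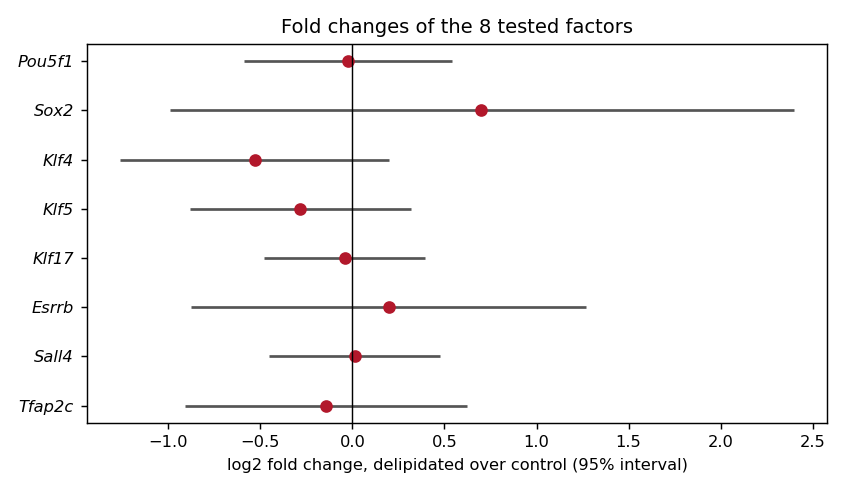
Log2 fold change of delipidated over control embryos for the 8 members that were tested, with points for the estimates and lines for their 95% intervals. Each interval includes 0, and the interval of Sox2 is the widest.

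Sall4, a zinc finger factor that binds AT-rich DNA, varied little over the 6 libraries, with a coefficient of variation of 13.7%. The gene, ENSMUSG00000027547, lies on the reverse strand of chromosome 2 from 168748332 to 168767943. It stood at 249, 173 and 205 CPM in controls and at 220, 230 and 182 CPM after delipidation, with the delipidated libraries inside the range of the controls. For Sall4 the log2 ratio was 0.01 (SE 0.21), and the interval reached from 0.730-fold to 1.39-fold (edgeR, adjusted p = 1.00, exact permutation p = 1.00). The sign of this ratio changed in 5 of the 16 alternatives, among them library totals without TMM factors (-0.0029) and omission of control replicate 2 (-0.11). All 16 parts held counts in at least 1 library, and 4.35% of the counts were on parts shared with Gm14261 on the opposite strand.

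Tfap2c (AP-2 gamma), which acts in trophectoderm and germ cells as well as in naive pluripotency, was lower per kb than Sall4 in all 6 libraries over the whole exonic length, but not by the part with most counts alone, where Tfap2c stood at 73.7 and Sall4 at 63.9 CPM per kb. The gene, ENSMUSG00000028640, lies on the forward strand of chromosome 2 from 172549593 to 172558622. It stood at 57.6, 59.7 and 39.0 CPM in controls and at 67.6, 42.8 and 30.9 CPM after delipidation, so the highest and the lowest values were both from delipidated embryos. For Tfap2c the log2 ratio was -0.14 (SE 0.35, edgeR, adjusted p = 1.00, exact permutation p = 0.7), and it was 0.20 when only the part with most counts was used. Part 1, the most upstream first exon with 290 bases, held 1, 11 and 4 counts in controls and 14, 0 and 0 after delipidation. Part 7, which has 231 bases from 172550991 and lies in the first exon of 2 transcripts that begin further downstream, held 251 counts over the 6 libraries, against 30 for part 1.

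Esrrb, an orphan nuclear receptor, varied more between libraries than Sall4 or Tfap2c. The gene, ENSMUSG00000021255, lies on the forward strand of chromosome 12 from 86361117 to 86521628. It stood at 13.8, 49.4 and 31.4 CPM in controls and at 50.4, 38.7 and 19.4 CPM after delipidation. Control replicate 1 and delipidated replicate 3 were low, and the highest library was 3.64 times the lowest. For Esrrb the log2 ratio was 0.20 (SE 0.49, edgeR, adjusted p = 1.00, exact permutation p = 0.6), and it was -0.15 without control replicate 1 and -0.12 without delipidated replicate 1.

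The counts of Esrrb did not reach the first exons of its longer transcripts. Part 1, from 86361117 to 86361538, and parts 2 to 4, from 86421644 to 86421968, held 0 counts in all 6 libraries. Parts 5 and 6, from 86470117 to 86470555, where another annotated transcript begins and which also hold an exon of the longer ones, were the first with counts, namely 32, 77 and 57 in the control and 72, 32 and 38 in the delipidated libraries. Part 16, an untranslated part of 1825 bases, held most counts, 1092 of 3319 over the 6 libraries. Reads across a junction count in each part they touch, and the counts do not show which transcript a read came from.

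Gata6, the primitive endoderm factor, was close to the limit of detection. The gene, ENSMUSG00000005836, lies on the forward strand of chromosome 18 from 11052510 to 11085635. It collected 1, 7 and 19 counts in controls and 13, 30 and 6 after delipidation. The counts were on the last of its 7 parts for 71 of 76 counts, and the 4 parts before it were empty in all 6 libraries. Gata6 did not pass the filter and was not tested, and its libraries overlapped.

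**Figure D3:**
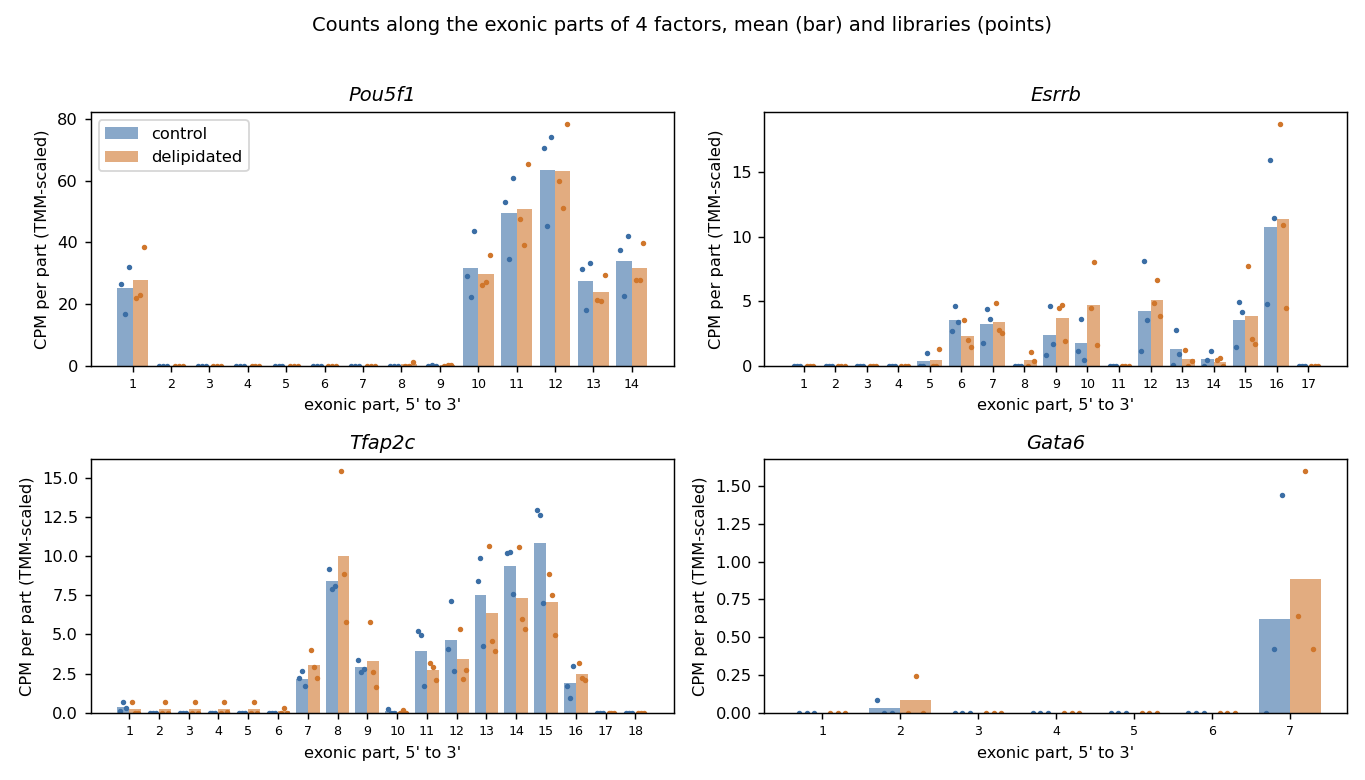
CPM per exonic part, numbered 5′ to 3′, for Pou5f1, Esrrb, Tfap2c and Gata6, with bars for the mean of 3 libraries and points for the libraries. Parts 2 to 7 of Pou5f1 and parts 1 to 4 of Esrrb are at 0, and Gata6 is counted almost solely on part 7.

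Ordered by level per kb, the members fell into a few steps. Klf17 exceeded Klf5, at 49.1 ± 11.2 CPM per kb (SD, n = 6), in all 6 libraries without overlap of their ranges, but by the part with most counts alone they stood at 270 and 240 CPM per kb with ranges that overlap. Pou5f1 and Klf17 did not differ beyond their spread, since Pou5f1 was the higher of them in 2 of 6 libraries. That pair depends on length, because counting only the parts of Pou5f1 that hold counts made it 1.51 times Klf17 and higher in 6 of 6 libraries, and lengthening each such part by the read length less 1 base made it 1.02 times Klf17 and higher in 2 of 6. With only the part with most counts, Pou5f1 stood at 1598 and Klf17 at 270 CPM per kb, in this order in 6 of 6 libraries. These parts have 154 and 1453 bases. Because a read counts in each part it touches, dividing by the length of 1 part raises short parts more than long ones. Levels and orders by the part with most counts, here and elsewhere, are therefore not comparable between genes whose parts differ in length. Klf5 was above Sall4, at 37.9 ± 5.19 CPM per kb (SD, n = 6), in 5 of 6 libraries, and Sall4 was above Klf4, at 27.4 ± 9.25 CPM per kb (SD, n = 6), in 5 of 6, with ranges that overlap. By the part with most counts alone Klf4, at 124 CPM per kb, stood above Sall4, and Klf5, at 240 CPM per kb, exceeded it in 6 of 6 libraries without overlap. The order or separation of these neighbours thus depends on the parts counted.

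Lower in the order, over the whole exonic length, neighbours from Klf4 down to Gata6 kept their order in all 6 libraries, and Gata6 and Nanog did not. Klf4 exceeded Tfap2c, at 13.5 ± 3.84 CPM per kb (SD, n = 6), in all 6 libraries, and Tfap2c exceeded Esrrb, at 5.60 ± 2.51 CPM per kb (SD, n = 6), likewise, although the ranges of each pair overlapped or nearly touched. Esrrb exceeded Sox2, at 1.91 ± 0.863 CPM per kb (SD, n = 6), in 6 of 6 libraries with overlapping ranges. Sox2 was 7.52 times Gata6, at 0.254 ± 0.213 CPM per kb (SD, n = 6), with no overlap. With only the part with most counts they stood at 7.38 and 2.22 CPM per kb, and their ranges overlapped. Gata6 and Nanog, at 0.0714 ± 0.0869 CPM per kb (SD, n = 6), were not told apart, with Gata6 the higher in 4 of 6 libraries. Over the members the sum was 1024, 802 and 1029 CPM in the control and 981, 860 and 853 CPM in the delipidated libraries.

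Set beside their listed paralogues, the members were not always the highest gene. The lists leave out some POU and Sox genes, so ranks hold among the listed genes alone. The paralogues named by level in this paragraph were chosen after their values were seen, and no test was made. Among 9 listed POU genes Pou5f1 was far ahead, 9.60 times Pou2f2 and higher in 6 of 6 libraries. The 3 highest of 17 listed Klf genes were Klf17, Klf5 and Klf4, with Klf16 next at 17.5 ± 3.18 CPM per kb (SD, n = 6). Sall4 was 56.1 times Sall2. By contrast, Sox2 was the third of 11 listed Sox genes, below Sox15 in 6 of 6 libraries, which stood at 6.25 ± 2.56 CPM per kb (SD, n = 6). Tfap2e was 2.36 times Tfap2c and higher in 6 of 6 libraries. Gata6 was the fifth of 6 Gata genes, while Gata4, its partner in the primitive endoderm, stood at 33.1 ± 5.28 CPM per kb (SD, n = 6) and Gata1 at 19.8 ± 5.93 CPM per kb (SD, n = 6). Esrrb led Esrrg in 4 of 6 libraries, within their spread.

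**Figure D4:**
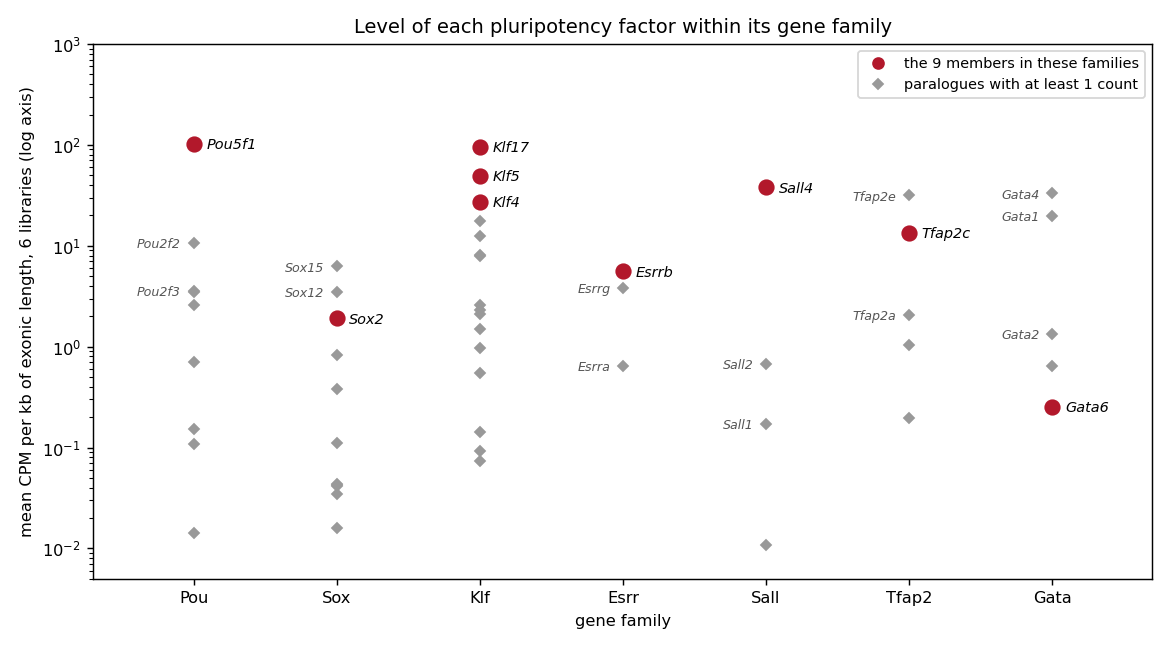
Mean level over 6 libraries in CPM per kb, on a log axis, of the 9 members that belong to gene families with listed paralogues (large circles) and of these paralogues (small diamonds), by family. Pou5f1, Klf17, Sall4 and Esrrb are the highest of the listed genes of their families, while Sox15, Tfap2e and Gata4 lie above Sox2, Tfap2c and Gata6.

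Of 46 listed paralogues 31 were tested, 16 with a positive and 15 with a negative fold change, a median log2 fold change of 0.020 and 0 genes with an unadjusted p-value under 0.05. The smallest p-values belonged to a pair of POU genes. Pou6f1 stood at 12.9, 19.5 and 7.07 CPM in controls and at 32.3, 17.5 and 18.1 CPM after delipidation, overlapping by control replicate 2, with a log2 ratio of 0.78 (SE 0.48, edgeR, adjusted p = 1.00). Pou2f3, better known from tuft cells, had a log2 ratio of 0.88 (SE 0.61, edgeR, adjusted p = 1.00).

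In the wider network of pluripotency, of 41 genes 36 were tested, 18 positive and 18 negative, with a median log2 ratio of 0.0071. There were 0 genes with an unadjusted p-value under 0.05 among the positive and 2 among the negative ones (edgeR). Among all 16020 genes tested there were 184 and 279. Tbx3, a T-box factor of naive stem cells, stood at 142, 129 and 159 CPM in controls and at 114, 99.1 and 81.5 CPM after delipidation. The groups of Tbx3 did not overlap, and the log2 ratio was -0.54 (SE 0.23, edgeR, adjusted p = 1.00). The other of the 2 was Gdf3, a ligand of the TGF-beta family. It passed the filter through the controls alone, so its direction was set by the filter and its place among the 2 is a description. Gdf3 collected 8, 24 and 16 counts in controls and none after delipidation. By the part with most counts, in which a read counts once, and with 3 counts allowed over the delipidated group, it was at least 9.76-fold lower, or at least 5.41-fold lower when 1 control library is left out (edgeR, adjusted p = 1.00). Such bounds, here and for the markers of other cells, cover the counting error of the group at 0 alone. They take the control counts, 24 for Gdf3, as they stand. They do not cover the spread between pools, where single libraries can differ by far more than 3 counts. Nr0b1 (Dax1), a nuclear receptor of stem cells, had 0 counts in all 6 libraries.

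For factors of the trophectoderm and primitive endoderm, 10 of 16 genes were tested, 2 positive and 8 negative, with a median log2 ratio of -0.26. Of these 1 passed an unadjusted 0.05 (edgeR), Eomes, a T-box factor of the trophectoderm, beside 2.89% of all genes tested. Eomes was named for the smallest p-value of its list, so its values are those of a selected gene. Eomes stood at 7.42, 6.83 and 12.7 CPM in controls and at 2.42, 1.60 and 1.20 CPM after delipidation, without overlap of the groups. Its log2 ratio was -2.36 (SE 0.70, edgeR, adjusted p = 1.00), so it was not called. Krt18, a keratin of the trophectoderm, had a log2 ratio of -1.26 (SE 0.78, edgeR, adjusted p = 1.00), and its groups overlapped.

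Of the partners and regulators of the members, all 20 listed genes were tested, 11 positive and 9 negative, with a median log2 ratio of 0.026 and 0 genes at an unadjusted p-value under 0.05. Mta2, a subunit of the NuRD complex, was the highest per kb, with 544 ± 78.2 CPM in control and 530 ± 56.4 CPM in delipidated embryos (SD, n = 3 each). Cnot3, a subunit of the CCR4-NOT deadenylase, had a log2 ratio of 0.29 (SE 0.20, edgeR, adjusted p = 1.00).

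Genes of the stage itself were balanced between the groups. For the 20 tested activation genes there were 10 positive and 10 negative fold changes with a median log2 ratio of 0.017, and for the 20 tested maternal transcripts 12 positive and 8 negative with 0.085. Neither list had a gene with an unadjusted p-value under 0.05. The smallest p-values belonged to Tdpoz4 (log2 0.74, SE 0.58) and Sp110 (log2 0.34, SE 0.27), genes switched on at this stage, and to Npm2 (log2 0.40, SE 0.23), a nucleoplasmin of the egg, and Zp2 (log2 -0.41, SE 0.34), a protein of the zona pellucida (edgeR, adjusted p = 1.00 each). The summed activation genes came to 1283, 778 and 1150 CPM in the control and 921, 1023 and 1447 CPM in the delipidated libraries, and the maternal transcripts to 5117, 3175 and 4723 CPM against 3758, 3974 and 5573 CPM. Control replicate 2 was the lowest of the controls on both lists, as it was for Pou5f1. Several activation genes, such as the Zscan4 genes, are near-identical copies whose counts are uncertain.

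Among markers of other cells, 6 of 13 stromal markers were tested, 0 positive and 6 negative, and 4 had an unadjusted p-value under 0.05 (edgeR), beside 2.89% of all genes tested. Vim and Col1a1 passed the filter through the controls alone, so their direction was set by the filter. Lgals1, Sparc, Col1a2 and Tagln, the other tested markers, held at least 10 counts in every control library but in only 1 delipidated library each. The controls thus carried all 6 past the filter, which favoured a negative direction, and these numbers are a description. Thy1, Dcn and Acta2, chosen after their values were seen and too low to be tested, had higher means in delipidated embryos, which rest mostly on 1 library each: 0.122 against 0.890, 0 against 0.635 and 0.0806 against 0.141 CPM. The other 4 untested markers (Col3a1, Lum, Pdgfrb and S100a6, likewise named after the fact) held 0 counts after delipidation. Together the stromal markers came to 30.1, 29.5 and 64.8 CPM in the control and 1.19, 5.10 and 7.62 CPM in the delipidated libraries, without overlap. Their most abundant gene per kb was Lgals1, a galectin, with a log2 ratio of -3.44 (SE 1.03, edgeR, adjusted p = 1.00). Vim, the intermediate filament of mesenchymal cells, collected 152, 145 and 300 counts in controls and none after delipidation (edgeR, adjusted p = 0.0721). With 3 counts allowed over the delipidated group and the control counts taken as they stand, Vim was at least 35.0-fold lower, or at least 17.9-fold lower without 1 control library. Col1a1, a collagen, was at least 8.54-fold lower on the same terms, or at least 4.76-fold lower without 1 control library (edgeR, adjusted p = 1.00). Over the tested markers, all carried past the filter by the controls, the median log2 ratio was -3.56, or -3.27 with Vim and Col1a1 at their bounds. Genes lower in controls were thus less likely to enter this median, and it is a description. What part such RNA has in the values of the members was not tested.

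The other marker lists overlapped between the groups, apart from leukocyte markers, and 0 of their genes passed an unadjusted 0.05. Median log2 ratios were -0.17 for cumulus and granulosa, -0.91 for leukocyte and 0.48 for oviduct markers. Cumulus and granulosa markers, 5 of 20 tested with 2 positive and 3 negative, came to 62.6, 46.1 and 174 CPM in the control and 36.8, 46.7 and 65.7 CPM in the delipidated libraries. Their most abundant gene per kb was Amhr2 (edgeR, adjusted p = 1.00), Star had the smallest p (edgeR, adjusted p = 1.00), and Foxl2 and Ptx3 were at 0 in all 6 libraries. Control replicate 3 stood out by Cyp11a1 and Hsd3b1, steroid enzymes chosen after their values were seen, with 653 and 607 counts. Leukocyte markers, 7 of 11 tested with 1 positive and 6 negative, came to 18.6 ± 4.69 CPM in control and 11.4 ± 2.94 CPM in delipidated embryos (SD, n = 3 each) without overlap, with Cd74 the most abundant per kb, 0 of the 11 at 0 throughout, and Itgb2 (log2 -1.05) and Coro1a (log2 -0.91) at the smallest p (edgeR, adjusted p = 1.00 each). Itgb2, Cd74, Laptm5, Coro1a and Csf1r held at least 10 counts in every control but not in every delipidated library. Cd52, the positive gene, held at least 10 in every delipidated but not in every control library. The filter thus favoured these signs, and their numbers are a description. Oviduct epithelium markers, 4 of 10 tested with 3 positive and 1 negative, came to 87.1, 229 and 118 CPM against 170, 198 and 114 CPM, most of it from Epcam. Wfdc2 was at 0 throughout, and the smallest p belonged to Ccdc153 (log2 -2.31, SE 1.58) and Tppp3 (log2 1.15, SE 1.17; edgeR, adjusted p = 1.00 each).

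The genes whose pattern over the 6 libraries came nearest to the members with the highest levels were found among 8126 others with a mean of at least 10 CPM, by the root mean square difference of centred log2(CPM + 1). For Pou5f1 these were Ddit3 (0.0607), Sap130 (0.0759) and Egfr (0.0768), where the median over all genes compared was 0.473. Ddit3, a transcription factor of the stress response, stood at 23.1, 14.4 and 27.2 CPM in controls and at 17.3, 17.4 and 28.7 CPM after delipidation, and like Pou5f1 it was highest in replicate 3 of both groups. For Klf17 they were D1Pas1 (0.0538), Epc2 (0.0584) and Manf (0.0594), with a median of 0.385. D1Pas1, a DEAD-box helicase gene, stood at 75.8, 57.1 and 58.8 CPM in controls and at 72.3, 62.9 and 61.8 CPM after delipidation. These likenesses rest on 6 libraries.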

How the data were processed

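Counts were deposited by the authors as raw counts of reads per exonic part, without normalization. Per the labels, reads were trimmed with Trimmomatic 0.36, aligned with STAR 2.5.2b to mm10 and counted with featureCounts, from libraries that keep the strand after depletion of ribosomal RNA. Parts under 1 gene identifier were summed to genes. Of 33309 parts with joined identifiers, 27968 were assigned by the GENCODE M21 annotation, and between 2.49% and 2.57% of a library's counts were left out. A read that spans several parts counts in each, so sums exceed reads and their precision is overstated. Tests used edgeR 4.0.16 under R 4.3.3 (filterByExpr, minimum count 10, minimum total 15; TMM; quasi-likelihood test without covariates), with Benjamini-Hochberg adjustment over all genes tested and genes called below 0.05 when the log2 ratio also passed 1. Biological variation between pools, as edgeR's common coefficient, was 0.663. Exact permutation tests used mean log2(CPM + 1). The code was tested on simulated counts. Alternatives were DESeq2 1.42.0, limma-voom (limma 3.58.1), other scaling, filters, counting and length, a replicate block and each library left out. Genes named by rule were the members, 2 genes with the smallest p-value and the highest level per kb of each list, and the 3 nearest in pattern to the 2 highest members, less 1 gene withheld for evaluation; others, such as genes at 0, paralogues by level and single markers, were named after their values were seen. Members and lists were chosen with earlier results of these data known.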

Additional observations from a re-analysis of the deposited data

How the results depend on the processing

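Over 16 alternatives, the log2 fold changes of the 8 tested members kept their direction in 112 of 128 values and changed it in 16, and 0 of the 128 had an adjusted p-value under 0.05 (edgeR, DESeq2 or limma-voom). Klf4, Klf5 and Sox2 kept their direction in all 16. The value of Pou5f1 was 0.0034 with limma-voom, that of Sall4 -0.0029 with library totals and no TMM factor, and that of Tfap2c 0.20 with only the part with most counts, and the cause was not tested. Omitting single libraries, log2 ratios ranged from -0.23 to 0.16 for Pou5f1, from -0.13 to 0.094 for Klf17, from -0.48 to -0.089 for Klf5, from 0.38 to 1.04 for Sox2, from -0.84 to -0.25 for Klf4, from -0.15 to 0.68 for Esrrb, from -0.11 to 0.17 for Sall4 and from -0.50 to 0.079 for Tfap2c, and the number of members with an unadjusted p-value under 0.05 from 0 to 1.

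Among all genes, edgeR called 0 higher and 0 lower, with 184 and 279 at an unadjusted p-value under 0.05. DESeq2 called 3 higher and 9 lower on the same genes and 9 higher and 40 lower without a filter, edgeR without a filter called 5 higher and 25 lower, and limma-voom called 0. With the replicate block there were 0 calls in either direction and 0 members with an unadjusted p-value under 0.05. Libraries of the same number did not deviate together (correlations of -0.084, 0.070 and 0.043), which shows no pairing and does not exclude shared handling. Without a filter edgeR gave log2 fold changes of -0.67 for Nanog (standard error 3.39) and 0.57 for Gata6 (standard error 2.10).

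Counts were found in all 6 libraries for 9 members, or 8 with the part with most counts alone, and with that part Sall4 stood sixth in level, after Klf4 and Tfap2c. Levels over the parts with counts only, and over such parts lengthened, were added after the data were seen, whereas levels by the part with most counts were planned. The latter were not corrected for reads that reach beyond the part, which raises short parts more than long ones. Low counts limit Nanog, Gata6 and Sox2.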
